A study of Drosophila melanogaster with 16 samples.

Results

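Basement membranes are thin sheets of extracellular matrix that wrap organs and muscles. The 10 genes described here encode their core parts and partners in Drosophila melanogaster: the collagen IV chains vkg and Col4a1, the laminin chains LanA, LanB1 and LanB2, the perlecan gene trol, the nidogen gene Ndg, and the genes of papilin (Ppn), SPARC and peroxidasin (Pxn). Chromatin accessibility at these genes was taken from the authors' deposited table of 8069 ATAC-seq peaks on the dm6 build. A peak was counted for a gene when its midpoint lay in the gene's RefSeq span or within 1000 bp of either end. By this rule 12 peaks were found at 8 of the 10 genes, and Ppn and Pxn had none.

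Collagen IV forms a network that gives the basement membrane its strength, and laminin, a trimer of an alpha, a beta and a gamma chain, forms a second network that starts its assembly at cell surfaces. Perlecan, a large heparan sulfate proteoglycan, and nidogen, a linker protein, bind to both networks. In the fly larva the fat body is a main source of collagen IV, which it secretes into the hemolymph and which then settles on other tissues, and hemocytes also make matrix proteins.

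The study measured accessibility in fat body, the organ of lipid storage and protein secretion, dissected from virgin w1118 females. Omni-ATAC libraries were made, in which a transposase cuts open DNA, so that reads in a peak measure how open the stretch is. Flies were reared at 25 °C, divided within 8 h of eclosion and held for 25 days in 1 of 4 groups of 4 libraries: 25 °C with ethanol vapour as vehicle, 25 °C with S-methoprene, 11 °C with ethanol, and 11 °C with S-methoprene. S-methoprene is a juvenile hormone analog and was given at 39.4 mM in ethanol of 99%, 10 µL every 2 days. All groups shared the w1118 strain and the ethanol. Each library pooled the fat bodies of 25 flies, kept only if their ovaries looked as the condition should make them: regressed at 11 °C with ethanol, the arrest called diapause, and large in the other groups.

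The table compares the temperatures, and its 12 peaks at the 10 genes are described below without a value for any single library. For each peak it gives the log2 mean of normalised reads over all libraries used, over those at 25 °C and over those at 11 °C, with the fitted log2 change, 25 °C over 11 °C, and the false discovery rate (FDR) over the whole table. The overall mean weighs 25 °C by 0.429, the weight that 3 libraries against 4 or 6 against 8 would give, and which libraries entered is not stated. Depth per library is therefore unknown and no error per mean can be given. Whether drug and vehicle libraries were pooled is also not known, so their parts cannot be told apart here. Temperature cannot be told apart from ovary state where both go together. Of 13 fat body markers 12 had a peak, led at 25 °C by the yolk protein gene Yp1. Its peak, shared with asRNA:CR45601, had 613 mean normalised reads at 25 °C and 341 at 11 °C. Having a peak does not by itself mark the tissue, since 6 of 6 markers of oenocytes, another cell type described below, had one too. Since whole tissue was used, more cells of a type with open chromatin at a gene and more open chromatin per cell cannot be told apart.

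Basement membrane genes were more accessible at 11 °C or did not pass the test. At an FDR under 0.05 in the authors' deposited table, 6 of the 12 peaks were more accessible at 11 °C and 0 peaks at 25 °C. By the unadjusted p-value of the same DiffBind table, 7 of the 12 were under 0.05 in favour of 11 °C and 0 in favour of 25 °C. No share over all peaks is given here for the unadjusted p-value. It is passed by many peaks: the uncalled peak of vkg, with an unadjusted DiffBind p-value of 0.0115, ranked 1801 of 8069. At an FDR under 0.05, 10.0% of all 8069 peaks were called in favour of 11 °C and 12.2% in favour of 25 °C. The 6 called peaks lay at 5 genes, namely vkg, Col4a1, LanA, LanB2 and trol, with 1.44 to 2.34 times as many mean normalised reads at 11 °C as at 25 °C. Among the 9027 genes with at most 3 peaks, as the members have, 10.0% held a peak called in favour of 11 °C. The difference of log2 means, 25 °C minus 11 °C, was below 0 in 10 of the 12 peaks, with a median of -0.44, against -0.02 over all peaks.

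**Figure D1:**
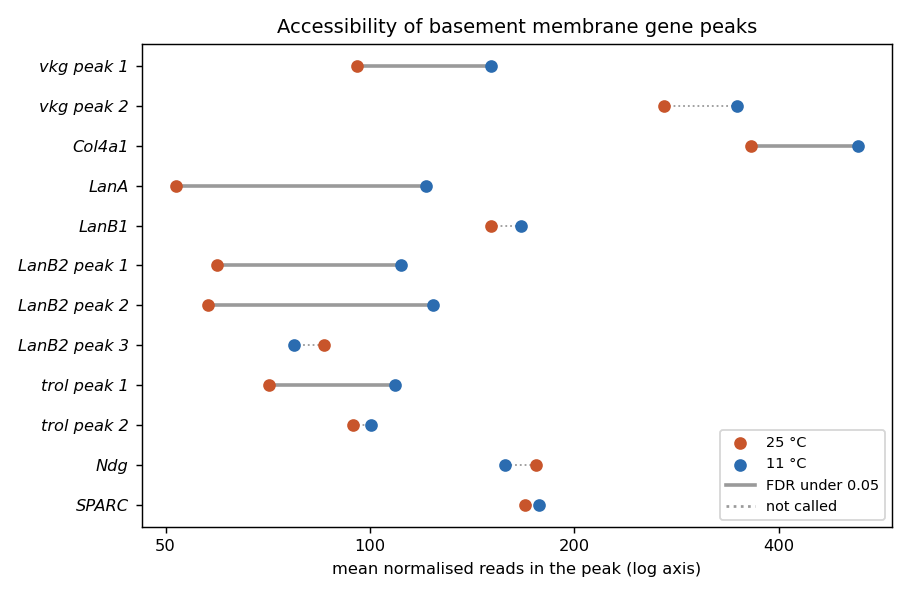
Mean normalised reads (log axis) at 25 °C and 11 °C in each of the 12 peaks, numbered along the chromosome within a gene. Points are the authors' means per temperature with no error bars, since no value per library was analysed; thick lines mark an FDR under 0.05. The 6 called peaks all have the 11 °C point to the right, from 1.44 times at Col4a1 to 2.34 times at LanA.

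The collagen IV genes vkg and Col4a1, which encode the alpha2 and alpha1 chains, lie side by side on chromosome arm 2L, at 5012144 to 5028191 and 5029609 to 5037279, with 1417 bp between them. They are known to be transcribed away from each other, from the stretch between them. All 3 of their peaks had more reads at 11 °C, and 2 of the 3 passed the test. No other gene lay within 1000 bp of any of the 3.

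The peak at Col4a1 (2L, 5029332 to 5029732) lay across the gene's lower-coordinate end, with its midpoint 77 bp outside. It held 364 mean normalised reads at 25 °C and 524 at 11 °C, the highest of the 12 at either temperature, and stood at the 96.3rd percentile of all peaks by concentration. The authors' deposited table gives it a fitted log2 fold change (25 °C over 11 °C) of -0.44 and an FDR of 0.00189. It was thus 1.44 times higher at 11 °C by the means and 1.36 times by the fitted value.

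Within vkg, the inner peak (2L, 5023401 to 5023801), 4590 bp from the gene's upper-coordinate end, was also more accessible at 11 °C. It held 95.7 mean normalised reads at 25 °C and 151 at 11 °C, with a fitted log2 fold change of -0.52 and an FDR of 0.0014 in the authors' deposited table. This peak was the single one of the 6 called that lay more than 1000 bp from both ends of its gene. The second peak of vkg (2L, 5027332 to 5027732) lies 659 bp inside the end that faces Col4a1, 2000 bp from the Col4a1 peak by midpoints. It held 271 mean normalised reads at 25 °C and 347 at 11 °C, and with an FDR of 0.0515 in the authors' deposited table it narrowly missed the threshold. Its fitted log2 fold change was -0.23 in the authors' deposited table.

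The laminin genes held the largest differences. LanA encodes an alpha chain, LanB1 the beta chain and LanB2 the gamma chain. Of their 5 peaks 3 were called, all in favour of 11 °C, and they lay at LanA and LanB2.

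The single peak of LanA (3L, 6218544 to 6218944) was centred 722 bp beyond the upper-coordinate end of the gene, which spans 6203831 to 6218022, and no other gene came within 1000 bp of it. It held 51.7 mean normalised reads at 25 °C and 121 at 11 °C, a ratio of 2.34. The authors' deposited table gives a fitted log2 fold change of -1.11 with an FDR of 5.03e-11, which is rank 140 of the 8069 peaks by p-value. Among the 808 peaks called in favour of 11 °C it had the 31st largest fitted change. The next peak on that side of LanA was 43567 bp from the gene, at Ldh, and had 93.9 and 81.4 mean normalised reads at 25 °C and 11 °C (FDR 0.435 in the authors' deposited table).

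LanB2 (3L, 9614914 to 9623980) carried peaks at both ends, and those called lay at 1 end, a contrast between ends that was not tested. At its lower-coordinate end, the peak inside the gene (9615697 to 9616097) held 57.8 mean normalised reads at 25 °C and 124 at 11 °C, with a fitted log2 fold change of -1.03 and an FDR of 2.38e-09 in the authors' deposited table. Its neighbour, centred 1040 bp away and 57 bp outside the gene (9614657 to 9615057), held 59.6 and 111, with a fitted log2 fold change of -0.78 and an FDR of 3.59e-05 in the authors' deposited table. That peak is also within 1000 bp of Tmc, which encodes a transmembrane channel-like protein. Both thus had 1.87 to 2.14 times as many mean normalised reads at 11 °C.

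At the other end of LanB2 the means went the other way, without passing. The third peak (9624005 to 9624405), shared with CG3335, held 85.5 mean normalised reads at 25 °C and 77.2 at 11 °C, with an FDR of 0.523 in the authors' deposited table. The gene table used has no strand, so which of these ends is the transcription start is not given here.

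LanB1 (2L, 7811438 to 7820771) had 1 peak, centred 863 bp outside its upper-coordinate end (7821434 to 7821834), the farthest from its gene of the 12. It held 151 mean normalised reads at 25 °C and 167 at 11 °C, with an FDR of 0.645 in the authors' deposited table. It is also within 1000 bp of the gene CG7115 and of the antisense gene asRNA:CR45008, so it is not particular to LanB1. The alpha and gamma chain genes had called peaks and the beta chain gene had none, a contrast that was not tested. A second laminin alpha chain gene, wb, had 1 peak with 91.8 mean normalised reads at 25 °C and 86.7 at 11 °C (FDR 0.824 in the authors' deposited table).

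**Figure D2:**
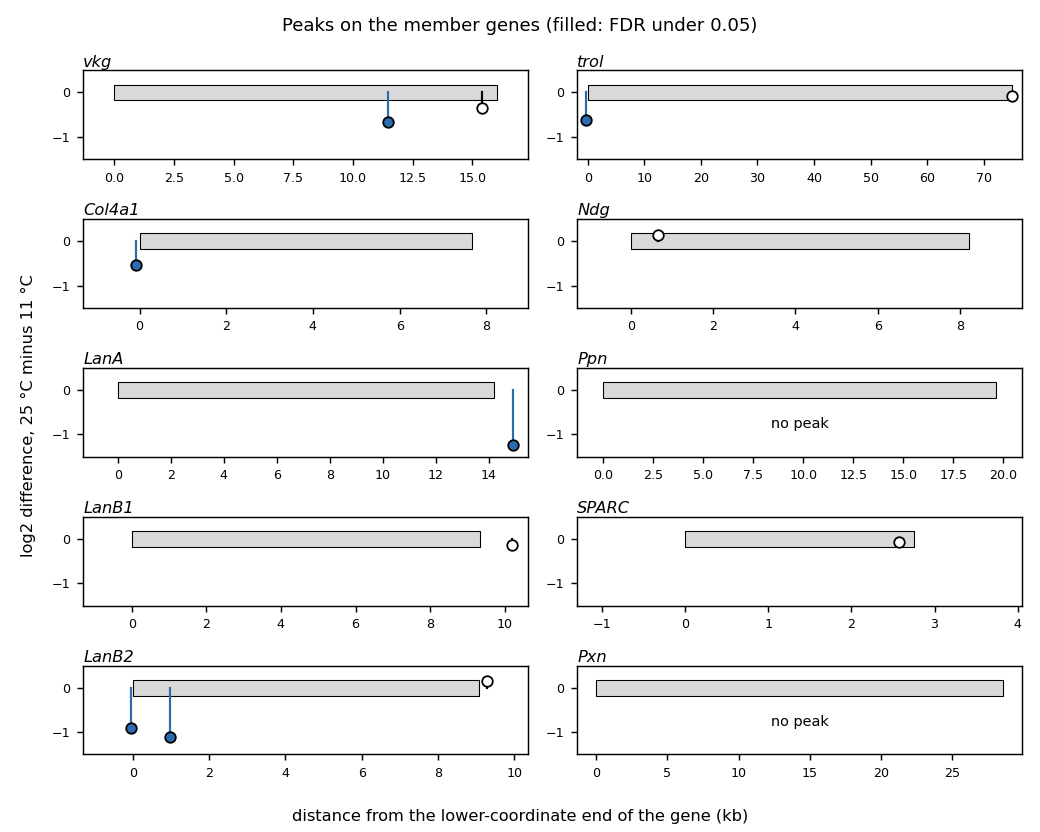
Each grey bar is a gene, drawn to its own scale in kb from its lower-coordinate end; pins mark peak midpoints, and their height is the difference of log2 mean normalised reads, 25 °C minus 11 °C. Filled pins (FDR under 0.05) all point down, to -1.23 at LanA, and LanB2 and trol each have a filled pin at the lower end and an open one at the upper end.

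The perlecan gene trol, on the X chromosome (2470460 to 2545427), is the longest of the 10 at 74968 bp and had 2 peaks, 1 beyond each end. The peak beyond its lower-coordinate end (2469921 to 2470321) held 71.1 mean normalised reads at 25 °C and 109 at 11 °C, a ratio of 1.53. The authors' deposited table gives it a fitted log2 fold change of -0.60 and an FDR of 4.01e-05. The peak is also within 1000 bp of boi, which encodes a Hedgehog co-receptor, so it can belong to either gene. The peak at the far end of trol (2545340 to 2545740), also within 1000 bp of mir-4955, held 94.5 and 100.3 mean normalised reads at 25 °C and 11 °C, with an FDR of 0.679 in the authors' deposited table. In trol, as in LanB2, the called peaks were thus at one end of the gene, and the difference between the ends was not tested.

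The nidogen gene Ndg had 1 peak, centred 662 bp inside its lower-coordinate end, with 175 mean normalised reads at 25 °C and 158 at 11 °C (FDR 0.432 in the authors' deposited table). It and the third peak of LanB2 were the members with more reads at 25 °C, by 0.15 on the log2 scale each.

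SPARC encodes a collagen-binding glycoprotein that collagen IV needs for its assembly in fly basement membranes. Its single peak (3R, 26871605 to 26872005) lay inside the gene, 190 bp from the end that faces Rb97D, and is shared with that RNA-binding protein gene. It held 169 mean normalised reads at 25 °C and 178 at 11 °C, with a fitted log2 fold change of -0.03 and an FDR of 0.856 in the authors' deposited table.

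The papilin gene Ppn, which encodes a proteoglycan-like matrix glycoprotein, and Pxn, whose product peroxidasin cross-links collagen IV, had no peak within reach, although they span 19660 and 28610 bp. Of the 339 protein-coding genes of 19660 to 28610 bp, 28.9% likewise had none. The peak nearest to Ppn lay 1877 bp beyond its upper-coordinate end (3R, 28542001 to 28542401), at mIF2, a mitochondrial translation initiation factor gene. That peak held 46.1 mean normalised reads at 25 °C and 94.8 at 11 °C, with a fitted log2 fold change of -0.91 and an FDR of 1.71e-06 in the authors' deposited table. The peaks nearest to Pxn were 2157 and 2536 bp away and had an FDR of 0.103 and 0.928 in the authors' deposited table. Also just outside the reach were a peak 1617 bp from vkg, near SelT, with 61.6 and 60.8 mean normalised reads at 25 °C and 11 °C, and one 1689 bp from LanB1, near Cdc14, with 371 and 366.

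**Figure D3:**
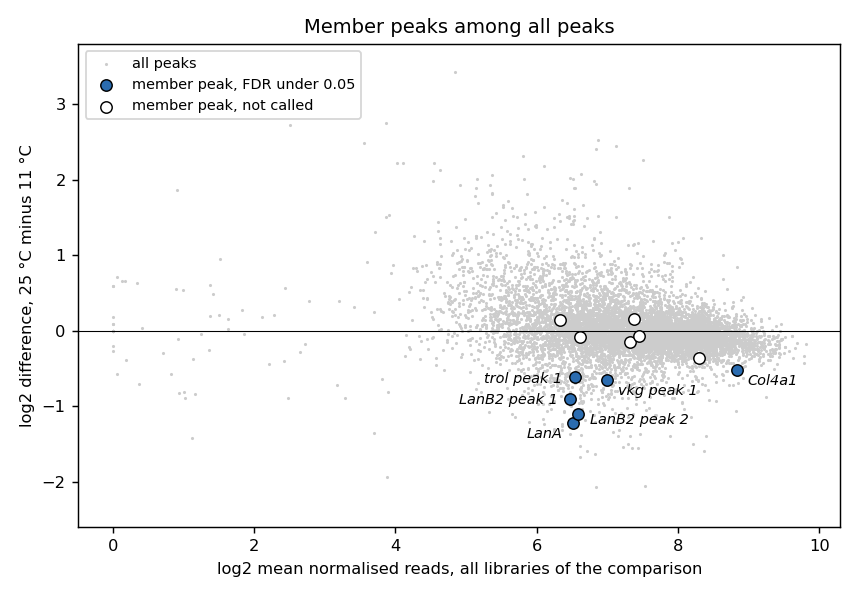
Each grey dot is a peak, by its log2 mean normalised reads over all libraries used and the difference of log2 means, 25 °C minus 11 °C. The 6 called peaks of the 10 genes (blue) lie at -0.53 to -1.23 and the 6 not called (white) at -0.36 to 0.15.

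The called peaks, apart from Col4a1, held few reads. Over all libraries used the 12 peaks had 80.8 to 456 mean normalised reads, with a median of 112, and 163 in the median peak of the table. Of the 6 called peaks 5 were below that median, and those of LanA, LanB2 and trol were in the lowest 25% of all peaks by reads. In that lowest 25%, 7.78% of the peaks were called in favour of 11 °C and 24.2% in favour of 25 °C. Without it 2 of 7 peaks were called, those of vkg and Col4a1, and of all 6052 peaks of the table outside the lowest 25%, 10.8% were called in favour of 11 °C and 8.13% in favour of 25 °C. With a midpoint inside the gene required, 2 of 5 peaks were called, 1 each in vkg and LanB2. No other gene reached 6 of the 12 peaks, and 4 of these 6 were called.

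Genes that process collagen and carry it out of the cell also had peaks in favour of 11 °C. Collagen chains are hydroxylated in the endoplasmic reticulum by prolyl and lysyl hydroxylases and leave it in COPII vesicles. Of 14 such genes 10 had a peak, 15 peaks in all, of which 4 at 4 genes passed in favour of 11 °C and 0 in favour of 25 °C, which is 26.7% of the peaks against 10.0% over the table. By the unadjusted DiffBind p-value the numbers were 5 and 0, for which no share over all peaks is given here. The median difference of log2 means was -0.10, 25 °C minus 11 °C, and the median fitted fold change -0.04. With a reach of 2000 bp, 7 of 20 peaks were called in favour of 11 °C and 2 in favour of 25 °C, so the calls were then no longer of one direction.

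The 4 called peaks lay at Sar1, PH4alphaEFB, Pdi and Plod, and those of Sar1 and Plod were reached by no other gene. That of Sar1, the GTPase that starts COPII coat assembly, held 105 mean normalised reads at 25 °C and 195 at 11 °C (fitted log2 fold change -0.78, FDR 2.91e-07 in the authors' deposited table). Named after their values were seen, the peak of PH4alphaEFB, a prolyl 4-hydroxylase alpha subunit gene, had 233 and 325 mean normalised reads, and that of Pdi, protein disulfide isomerase, 143 and 233. Plod, the lysyl hydroxylase gene, had 234 at 25 °C and 303 at 11 °C (FDR 0.0117 in the authors' deposited table). The Pdi peak is shared with CG12316 and the PH4alphaEFB peak with CDase. The single peak of Tango1, a cargo receptor for bulky proteins such as collagen, had 332 and 336 mean normalised reads (FDR 0.988 in the authors' deposited table).

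**Figure D4:**
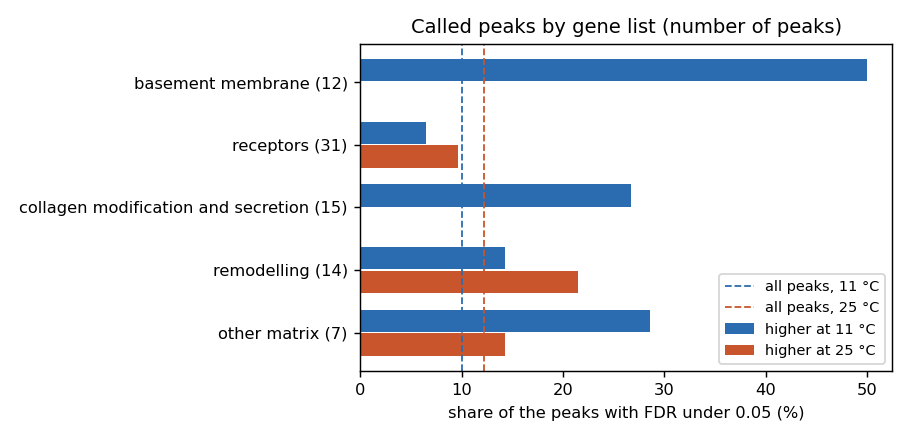
Share of each list's peaks called at an FDR under 0.05 in favour of 11 °C (blue) and of 25 °C (red), with the number of peaks in brackets; dashed lines are the shares over all peaks, 10.0% and 12.2%. The basement membrane genes and the collagen modification and secretion genes have called peaks in favour of 11 °C alone at this reach of 1000 bp, 6 of 12 and 4 of 15; at 2000 bp the latter list also has 2 in favour of 25 °C.

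The receptors and adhesion genes that hold cells to the basement membrane had peaks both ways. Of their 31 peaks at 13 genes 3 were called in favour of 25 °C and 2 in favour of 11 °C, 9.68% and 6.45%, near or below the shares over the table, with a median difference of -0.01 that was 0.09 without peaks shared with other genes. The largest called changes in both directions lay in rhea, which encodes talin, the link from integrins to actin. One of its peaks held 38.7 mean normalised reads at 25 °C and 91.7 at 11 °C, and another, shared with lncRNA:CR43910, 38.0 and 14.0. The authors' deposited table gives them fitted log2 fold changes of -1.13 and 1.37. Both lay in the lowest 25% of peaks by reads. Without it, of 20 receptor and adhesion gene peaks 1 was called in favour of 25 °C and 1 in favour of 11 °C. The single peak of mys, the main integrin beta chain gene, shared with fs(1)h, had 635 and 665 mean normalised reads (FDR 0.761 in the authors' deposited table).

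Genes of matrix remodelling had 14 peaks at 7 genes, of which 3 were called in favour of 25 °C and 2 in favour of 11 °C, against 12.2% and 10.0% over the table, with a median difference of -0.18. All 3 lay in the lowest 25% of peaks by reads, of which 24.2% were called that way, and without it 0 of 9 peaks were called in favour of 25 °C and 1 in favour of 11 °C. AdamTS-B, a secreted metalloprotease gene, held 72.3 mean normalised reads at 25 °C and 153 at 11 °C (fitted log2 fold change -1.01, FDR 3.50e-14 in the authors' deposited table). Sulf1, a heparan sulfate sulfatase gene, held 73.5 mean normalised reads at 25 °C and 26.6 at 11 °C in a peak beside 2 tRNA genes. Its fitted log2 fold change was 0.93 (FDR 0.00281) in the authors' deposited table. Of 7 peaks at 5 other matrix genes, 2 were called in favour of 11 °C and 1 in favour of 25 °C, with a median difference of -0.30. That median turned to 0.15 over the 4 peaks with the midpoint inside the gene, where 0 were called in favour of 11 °C. Over the 5 peaks not shared with other genes it was 0.08. The called peaks of this list all lay in the lowest 25% of peaks by reads, and without it 0 of 2 peaks were called in either direction. The thrombospondin gene Tsp had 55.3 and 101 mean normalised reads at 25 °C and 11 °C (fitted log2 fold change -0.80 in the authors' deposited table). At mspo, a secreted F-spondin family gene, the values were 55.5 and 23.5 (fitted log2 fold change 1.05 in the authors' deposited table).

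Hemocytes also make collagen IV and laminin, and muscle or oenocytes, the cells that make cuticular lipids, can remain on fat body dissections, so their markers are set beside these results. Of 10 hemocyte marker genes 5 had a peak, and Hml, eater, He, Sr-CI and PPO1 had none. Of their 7 peaks 3 were called in favour of 25 °C and 1 in favour of 11 °C, with 12.2% and 10.0% over the table. The most changed of the 3, at crq, had 59.9 mean normalised reads at 25 °C and 40.7 at 11 °C. With an FDR under 0.01, or with the midpoint inside the gene, 0 of the 3 remained, while the 1 in favour of 11 °C, in the phagocytic receptor gene drpr, did. In the lowest 25% of peaks by reads 24.2% were called in favour of 25 °C. Without it, of 5 hemocyte marker peaks 1 was called in favour of 25 °C and 1 in favour of 11 °C. The 7 peaks summed to 1265 mean normalised reads at 25 °C and 1279 at 11 °C, and those with most reads, at NimC1 and crq, are shared with other genes.

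Of 11 muscle markers 3 had a peak, and Act57B, Act88F, up, wupA, Tm2, sls, bt and Mlc2 had none. Of the 9 peaks 2 were called in favour of 25 °C, 22.2% against 12.2% over the table, and 0 in favour of 11 °C. The larger change was at the myosin gene Mhc, with 52.6 mean normalised reads at 25 °C and 22.0 at 11 °C. By the unadjusted DiffBind p-value 2 were in favour of 11 °C, for which no share over all peaks is given here. Both called peaks lay in the lowest 25% of peaks by reads, of which 24.2% were called in favour of 25 °C, so without it 0 were called. The 9 peaks summed to 1178 mean normalised reads at 25 °C and 1204 at 11 °C.

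Oenocyte markers had the largest share of peaks called in a single direction among the marker lists, and it was opposite to that of the basement membrane genes. Of 11 peaks at 6 genes 7 were called in favour of 25 °C, which is 63.6% against 12.2% over the table, and 0 in favour of 11 °C (0 by the unadjusted DiffBind p-value). The largest fitted log2 fold change among them in the authors' deposited table was 1.09 at Fad2, a desaturase gene, with 143 mean normalised reads at 25 °C and 52.3 at 11 °C. The Fad2 peak lay in the lowest 25% of peaks by reads, of which 24.2% were called in favour of 25 °C. Without that 25%, 4 of 8 oenocyte marker peaks were called in favour of 25 °C, against 8.13% of all peaks outside it. The 11 peaks summed to 2246 mean normalised reads at 25 °C and 1791 at 11 °C. The part of any of these cell types in the result was not tested.

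Of 32 peaks at fat body markers 8 were called in favour of 25 °C and 4 in favour of 11 °C. These are 25% and 12.5% of the peaks, against 12.2% and 10.0% over the table, so the share in favour of 11 °C is near that of all peaks. With an FDR under 0.01, 5 were called in favour of 25 °C, all at 1 gene, and 3 in favour of 11 °C. Of the 8 peaks 6 belong to apolpp, a lipid carrier gene. The most changed of the 8, at apolpp, had 214 mean normalised reads at 25 °C and 40.4 at 11 °C. Its fitted log2 fold change was 2.34 in the authors' deposited table (FDR 5.17e-38). The most changed of the 4, at Lsp1beta, had 123 mean normalised reads at 25 °C and 206 at 11 °C. All 4 peaks in favour of 11 °C are shared with another gene, and among the 11 peaks that no other gene reached 4 were called in favour of 25 °C and 0 in favour of 11 °C. The 32 peaks summed to 7581 mean normalised reads at 25 °C and 6006 at 11 °C.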

How the data were processed

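ATAC-seq libraries were compared between 25 °C and 11 °C in a table of differential accessibility. The tools named in the submitters' processing notes are DiffBind, MACS2, Bowtie2, Trim Galore, cutadapt, FastQC, bedtools, SAMtools and Picard, on dm6, with no version or role; read filters, duplicate treatment and scaling are not given in the sources used here and can change the values. Per the file headers the deposited columns are log2 concentrations (log2 mean normalised reads), a log2 fold change and a p-value with its FDR. The FDR, recomputed by Benjamini and Hochberg's method over 8069 deposited p-values, differed by at most 1.83e-15. The deposited fold changes had a slope of 0.805 on the difference of log2 means. Means and fitted changes are therefore both given for every called member peak, and for some of the other peaks.

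Peaks were joined by midpoint to RefSeq spans (assembly Release 6 plus ISO1 MT, the source of dm6) with Python 3.11.15 and pandas 2.3.3, and the step was tested on simulated data. All 10 member symbols matched, and 107 of 111 list entries did. Normalised reads are 2 to the power of the log2 concentration. No model was refitted and no chance test was run, since values of single libraries were not analysed here. The members and lists were chosen with earlier results of these data known. Named peaks are every called peak of a member, its most changed and its strongest, and for each other list the most changed called peak in each direction; wb, mys, Tango1, Plod, PH4alphaEFB, Pdi, Yp1, SelT, Cdc14 and other neighbours were named after their values were seen. Sequences were not used here.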

Additional observations from a re-analysis of the deposited data

How the results depend on the processing

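No paired analysis was possible because values of single libraries were not analysed here, and for the same reason leaving out replicates was not run. In favour of 11 °C, 6 of the 12 peaks were called with an FDR under 0.01 and 7 with one under 0.1. No share over all peaks is given here for either threshold, so these counts have no background. With an FDR under 0.05, 10.0% of all peaks were called in favour of 11 °C. At that threshold the number was 5 of 10 peaks with a reach of 500 bp and 7 of 15 with 2000 bp. It was 6 of 12 with any base of the peak counted and 4 of 6 with shared peaks left out. It was 2 of 5 peaks, at 2 genes in place of 5 genes, with the midpoint inside the gene. Without the lowest 25% of peaks by concentration it was likewise 2, of 7 peaks, at 2 genes, against 10.8% of all peaks outside that 25%. No peak was called in favour of 25 °C in these 8 alternatives, and all 12 peaks kept their sign with the fitted fold change. The median difference (25 °C minus 11 °C, log2), -0.44, was -0.36 with the midpoint inside, -0.36 with 2000 bp, -0.59 without shared peaks, -0.14 without the lowest 25%, -0.34 with the fitted fold change and -0.42 after subtracting the median of all peaks. The first 4 hold different peaks by construction. Depth per library is unknown.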

Other observations

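Markers of neurons and glia, trachea and ovary were looked up by the same rule, as values with no test beyond the FDR of the authors' deposited table. Over all peaks 10.0% were called in favour of 11 °C and 12.2% in favour of 25 °C. Neuron and glia markers had 6 peaks, of which 1, at elav, was called in favour of 11 °C (FDR 0.00399 in the authors' deposited table) and 0 in favour of 25 °C. That peak is shared with svr and arg, and with so few peaks the share of 16.7% is not read as a result. Trachea markers had 2 peaks, too few for a share. Of these 1, at trh, was called in favour of 11 °C (FDR 0.0187 in the authors' deposited table), and 0 with an FDR under 0.01. Ovary markers had 4 peaks, of which 0 were called at an FDR under 0.05 and 0 by DiffBind's unadjusted p-value at the same threshold. All 4, at vas and bam, are shared with other genes, so none is particular to an ovary marker. The ovary markers osk, Cp36 and Vm26Aa had no peak.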
